A study of Mus musculus with 9 samples.

Results

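Cytochrome P450 enzymes were followed in intestinal epithelial cells (IECs) of mice in which natural killer T (NKT) cells had been activated with α-galactosylceramide (αGalCer), a lipid antigen that they recognise on CD1d. A gene belonged to the family here if it was protein-coding, carried the symbol Cyp followed by a digit, and had at least 10 raw reads in 3 or more libraries, with Cyp11a1 and Cyp11b1 left out. Of the 29288 genes in the count table, 74 were P450 genes of this kind. Among these, 45 met the minimum and 29 did not, and all 45 also passed the filter of the statistical test. The rule used no difference between groups, but the members were chosen with earlier results of these data known.

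The 9 libraries came from female C57BL/6J WT mice, each injected intraperitoneally. Mice were 7 to 10 weeks old. The control group received PBS and was sampled at 18 h, the 18h-αGal group received 2 µg of αGalCer and was sampled at 18 h, and the 72h-αGal group received the same dose and was sampled at 72 h, with 3 mice in each. IECs were isolated from proximal small intestine crypts and sorted as live EpCAM+ CD45- CD31- Ter119- cells. All controls were labelled 18 h, so at 72 h treatment and time of sampling cannot be told apart.

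P450 enzymes are heme proteins that insert an oxygen atom into lipophilic substrates, with electrons passed on by cytochrome P450 oxidoreductase or, in mitochondria, by ferredoxin. In the small intestine they are the first barrier to drugs and dietary chemicals taken up from the lumen, and many are most abundant in mature enterocytes. Other members oxidise fatty acids and eicosanoids, or make and break down sterols, bile acids, vitamin D and retinoic acid. Nuclear receptors such as the pregnane X receptor and the constitutive androstane receptor, together with the aryl hydrocarbon receptor, switch on many genes of the xenobiotic group, and hepatocyte nuclear factors support their basal expression.

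Total counts per library lay between 8887861 and 32722293, and mitochondrial genes took 7.95% to 11.7% of them. Levels are given below as normalised counts, the raw count divided by a factor for each library. Control replicate 3, the smallest library, stood apart from the other 8 on the second principal component, at -53.7 against values from 0.0607 to 15.1. It also had the highest sum over 12 enterocyte marker genes, 416645 normalised counts, against 240306 and 162198 in the other controls. Results are therefore also given without it where that changed a count. All 7 epithelial markers were found, with sums from 84310 to 123240 normalised counts per library. Markers of other cells were lower but mostly detected. Sums over a list were at most 149 normalised counts for lymphocytes, 98.6 for endothelium and 59.4 for fibroblasts, and 340.0 to 837 for myeloid cells, most of the latter from Cd68 (262 to 751). Among defining genes, Cd3e (T cells) was at 0 in each control and at most 24.3 elsewhere, and Pecam1 (endothelium) had 12.6 to 47.5. Of the hepatocyte list, Alb was at most 48.3, Ttr had 95.1 to 225, and Cps1, which enterocytes also express, had 34711 to 64888.

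The P450 transcript pool was led by few genes. All 45 members together took 0.212% ± 0.0596 of the counts in controls (SD, n = 3), 0.152% ± 0.0238 in 18h-αGal and 0.158% ± 0.0435 in 72h-αGal, and the ranges of the groups overlapped. Per kilobase of exon, the highest mean level in controls belonged to Cyp3a13, a member of the drug-oxidising Cyp3a subfamily, with 1621 ± 758 normalised counts per kb. Cyp4f14, an ω-hydroxylase of leukotrienes and fatty acids, followed with 1332 ± 619, then Cyp4f40 with 1155 ± 387, Cyp2d26 with 1132 ± 432 and Cyp2c65 with 983 ± 353. These neighbours in the order lay within each other's SD. At the other end, Cyp26b1, which degrades retinoic acid, had 2.27 ± 2.01.

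**Figure D1:**
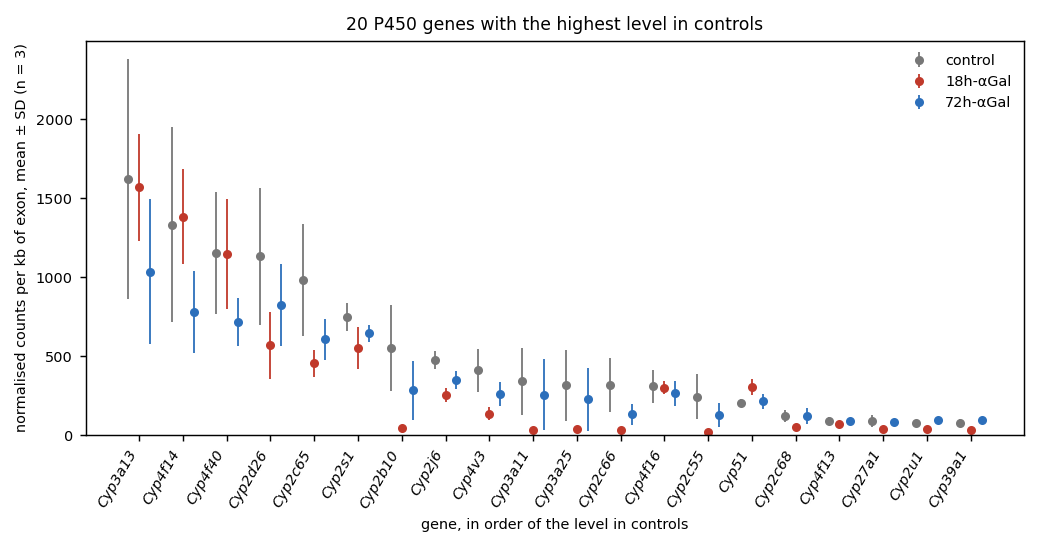
Level of the 20 P450 genes with the highest mean in controls, as normalised counts per kb of exon (linear axis from 0), with the mean of 3 mice as a point and the SD as a bar for control, 18h-αGal and 72h-αGal. Cyp3a13, Cyp4f14 and Cyp4f40 led in controls and at 18 h, whereas the points of Cyp2b10, Cyp3a11, Cyp3a25, Cyp2c66 and Cyp2c55 at 18 h lay between 16.3 and 43.6 normalised counts per kb.

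At 18 h after αGalCer, more members were lower than higher, though the 3 most abundant per kb were not called. Of the 45 members, 12 fell and 1 rose at an adjusted p under 0.05 (edgeR). That is 26.7% falling against a background of 2.69% of all 18933 genes tested, and 2.22% rising against 3.27%. The groups did not overlap, with 18h-αGal below control, for 21 members (46.7%, background 12.3%), and with 18h-αGal above control for 2 (4.44%, background 11.5%). The log2 fold change was negative for 39 of 45 members, or 86.7%, against 52.4% of all genes, and its median was -1.09 against -0.03 for all genes. In bulk samples, fewer cells of a type and less RNA per cell cannot be told apart. With a library left out, 3 to 13 members were called: 3 fell and 0 rose without control replicate 1, and 10 fell and 1 rose without control replicate 3, where the median was -0.83.

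The 12 members that fell carried a modest part of the pool. They held 21.8% of all P450 normalised counts in controls, 10.3% in 18h-αGal and 20.5% in 72h-αGal, as means of 3 libraries. The 12 genes were chosen on their fall in these same libraries, so a lower share at 18 h follows from the choice. The shares are a description and not a test. Split by level, 10 of the 26 members with a mean of at least 100 normalised counts in controls fell, and 2 of the 19 below that. No share of all genes at the same levels stands beside these counts, so they do not set the P450 genes apart. The 31 members called in no comparison had log2 fold changes at 18 h from -3.37 to 0.78, of which 26 were negative. Between libraries the share held by the 12 genes ranged from 19.8% to 23.6% in controls and from 10% to 10.6% in 18h-αGal. Cyp4f14 alone made up 17.6% to 21.5% of P450 normalised counts in controls and 27.7% to 29.3% in 18h-αGal.

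**Figure D2:**
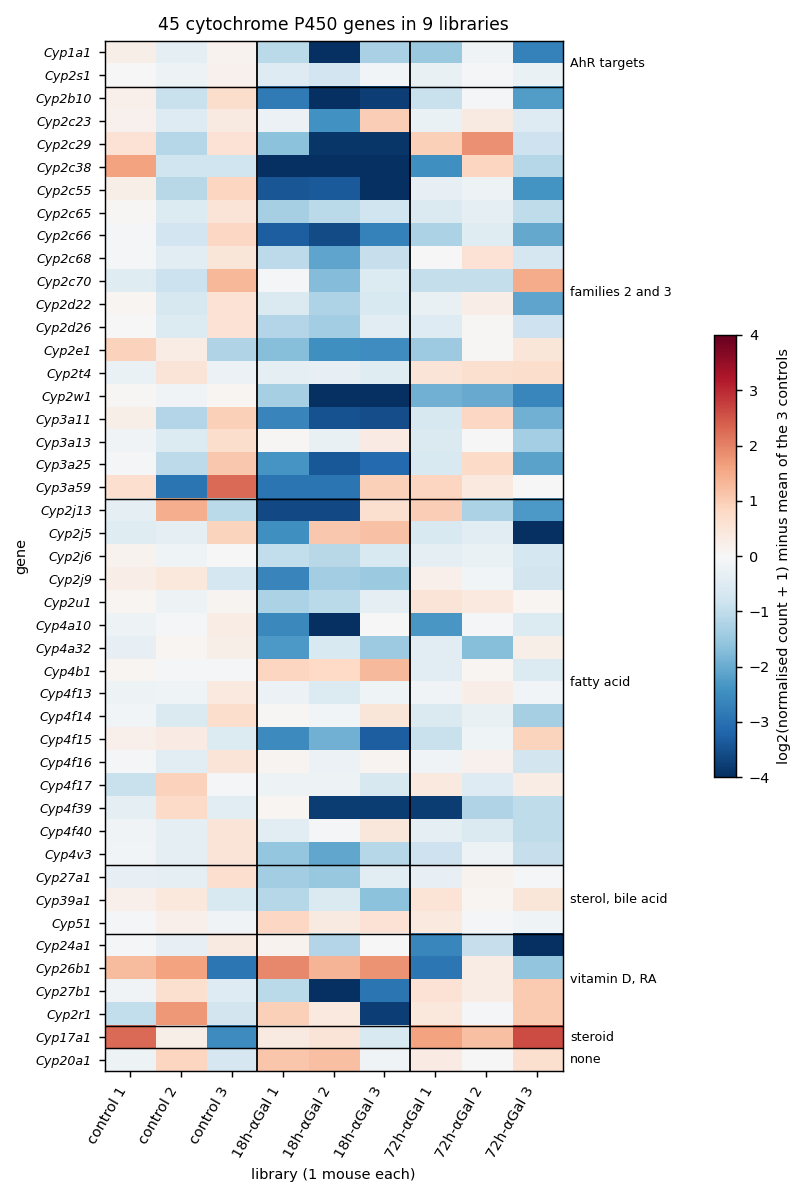
Heat map of 45 P450 genes (rows, in order of role) in 9 libraries (columns, 1 mouse each), coloured by log2(normalised count + 1) minus the mean of the 3 controls; differences beyond 4 in either direction are drawn in the end colours. The 18h-αGal columns are blue for most genes of families 2 and 3, Cyp4b1 is red in all 3 of them, and the 72h-αGal columns lie closer to the controls.

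The lowest log2 fold changes at 18 h were found among xenobiotic-metabolising genes of families 2 and 3. Of 18 such members, 7 fell at 18 h, none rose, and all 18 had a negative log2 fold change, with a median of -2.12. Among all genes tested, 2.69% fell, 3.27% rose and 52.4% were negative, with a median of -0.03. The 8 Cyp2c members lie on chromosome 19, in a cluster apart from Cyp2c23 (chr19:43993451-44017653), which lies at a distance. Of the 8, 5 fell, all of them in the cluster: Cyp2c38, Cyp2c55, Cyp2c65, Cyp2c66 and Cyp2c68. Several Cyp2c enzymes also oxidise arachidonic acid. To show the sequence before genes of this cluster that fell by different amounts, the RefSeq promoter windows of 3 of them are shown. The windows of Cyp3a11, a gene of the Cyp3a subfamily, and of Cyp4b1, the gene that rose, are shown as well. Each runs from 250 bases before to 50 bases after the transcription start (build GRCm38.p6, written 5′ to 3′ on the strand of the gene), and capitals mark exact matches, on either strand, to CAAAGTCCA (an HNF4 motif), AGGTCA or AGTTCA (nuclear receptor half-sites), GCGTG (aryl hydrocarbon receptor core) or TTCNNNGAA (a GAS element).
Cyp2c65: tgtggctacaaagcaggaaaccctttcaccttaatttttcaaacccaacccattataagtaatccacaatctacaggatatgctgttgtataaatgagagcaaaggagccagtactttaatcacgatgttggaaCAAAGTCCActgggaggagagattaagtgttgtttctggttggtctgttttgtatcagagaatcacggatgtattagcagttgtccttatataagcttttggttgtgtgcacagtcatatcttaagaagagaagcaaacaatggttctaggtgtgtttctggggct
Cyp2c66: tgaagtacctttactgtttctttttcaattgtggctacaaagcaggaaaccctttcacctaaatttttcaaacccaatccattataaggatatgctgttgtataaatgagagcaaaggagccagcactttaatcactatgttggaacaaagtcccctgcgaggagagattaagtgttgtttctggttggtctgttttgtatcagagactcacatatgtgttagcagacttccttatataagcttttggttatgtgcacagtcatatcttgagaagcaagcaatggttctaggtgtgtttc
Cyp2c68: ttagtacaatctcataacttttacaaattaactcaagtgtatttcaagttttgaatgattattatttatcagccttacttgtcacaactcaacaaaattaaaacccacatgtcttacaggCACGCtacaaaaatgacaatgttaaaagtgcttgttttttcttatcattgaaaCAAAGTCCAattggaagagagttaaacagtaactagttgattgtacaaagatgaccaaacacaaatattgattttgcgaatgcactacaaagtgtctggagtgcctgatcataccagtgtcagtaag
Cyp3a11: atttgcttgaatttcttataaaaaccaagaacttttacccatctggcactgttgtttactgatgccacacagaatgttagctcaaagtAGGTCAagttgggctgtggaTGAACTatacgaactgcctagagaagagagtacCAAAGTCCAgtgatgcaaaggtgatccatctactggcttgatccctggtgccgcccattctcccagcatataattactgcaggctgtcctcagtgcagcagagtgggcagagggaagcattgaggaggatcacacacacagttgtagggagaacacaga
Cyp4b1: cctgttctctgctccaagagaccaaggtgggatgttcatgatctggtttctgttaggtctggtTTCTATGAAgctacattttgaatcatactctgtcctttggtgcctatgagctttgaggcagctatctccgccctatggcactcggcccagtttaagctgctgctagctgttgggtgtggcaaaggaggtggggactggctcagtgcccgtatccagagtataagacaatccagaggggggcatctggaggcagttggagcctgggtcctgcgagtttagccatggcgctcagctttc
The windows lie at chr19:39060756-39061055 on the plus strand (Cyp2c65), chr19:39113648-39113947 on the plus strand (Cyp2c66), chr19:39741052-39741351 on the minus strand (Cyp2c68), chr5:145879805-145880104 on the minus strand (Cyp3a11) and chr4:115647672-115647971 on the minus strand (Cyp4b1).

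CAAAGTCCA was found 116 bases before the start of Cyp2c65, 77 bases before that of Cyp2c68 and 109 bases before that of Cyp3a11. The window of Cyp2c66 held no exact match to any motif searched. A window was given for 37 of the 45 members, 11 of them among the 12 that fell. CAAAGTCCA stood in 4 of the 37 (10.8%) and in 0.475% of all 32851 windows of the same length. Members were counted by gene and the background by window, so the units differ. The 4 were Cyp2c65, Cyp2c68, Cyp2c70 and Cyp3a11, of which the former 2 fell. Cyp2c65, Cyp2c68 and Cyp2c70 belong to the same cluster, so their matches need not be independent. Shares of the other motifs lay nearer to those of all windows, with GCGTG in 35.1% of members against 32.4%, AGGTCA in 18.9% against 16.3%, AGTTCA in 13.5% against 14% and TTCNNNGAA in 5.41% against 8.3%. AGGTCA was in the windows of Cyp2c29, Cyp2c70, Cyp2j5, Cyp2t4, Cyp3a11, Cyp3a25 and Cyp3a59, none of which fell. Of the 11 genes that fell and had a window, GCGTG stood in 4 and AGTTCA in 1. A difference between the genes that fell and the other members was not tested. The only members with TTCNNNGAA were Cyp4b1 and Cyp4f13. A match is a feature of the letters and not evidence of binding.

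Cyp2c66 (chr19:39102342-39175516, GRCm39), a gene of the intestinal Cyp2c cluster, had 527, 328 and 979 normalised counts in controls, 54.9, 45.8 and 84.2 in 18h-αGal and 232, 397 and 134 in 72h-αGal. Each 18h-αGal library was below each library of both other groups. At 18 h it fell by 3.31 ± 0.49 (SE) on the log2 scale, or 9.9-fold (adjusted p = 0.00365), the smallest adjusted p among the 45 members. Its neighbour Cyp2c65 (chr19:39049459-39082388) had 1869, 1227 and 2587 normalised counts in controls, 717, 857 and 1049 in 18h-αGal and 1206, 1403 and 901 in 72h-αGal. The control and 18h-αGal libraries did not overlap, but the fall was smaller, with a log2 fold change of -1.11 ± 0.25 (adjusted p = 0.0234). Of the 50-base words in the transcripts of Cyp2c66, 19.5% also occurred in Cyp2c65, so a part of their reads may have been exchanged or dropped.

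Cyp2c55 (chr19:38995462-39031144), which hydroxylates arachidonic acid, had 617, 238 and 949 normalised counts in controls, 47.3, 49.4 and 24.8 in 18h-αGal and 415, 446 and 97.1 in 72h-αGal. Its log2 fold change at 18 h was -3.83 ± 0.73 (14.2-fold lower, adjusted p = 0.0228), the largest among members with more than 100 normalised counts on average in controls. Cyp2c68 (chr19:39676779-39729553) had 289.6, 231 and 430.3 in controls, 146, 71 and 163 in 18h-αGal and 307, 454 and 192 in 72h-αGal. Its fall of 1.30 ± 0.36 on the log2 scale only just passed (adjusted p = 0.0497), and 37.3% of its 50-base words occur in other genes, mostly Cyp2c40. Cyp2c38 (chr19:39378000-39451547), an arachidonic acid epoxygenase, was low throughout, with 54.6, 9.49 and 9.51 normalised counts in controls, 0 in each 18h-αGal library and 2.32, 32.3 and 7.36 in 72h-αGal. Set against a floor of 3 counts in each library, it was at least 8.44-fold lower at 18 h (adjusted p = 0.0314), and at least 3.27-fold lower without control replicate 1, when it did not pass the filter on low counts. Cyp2c38 met the minimum of 10 raw reads only through control and 72h-αGal libraries, so its low level at 18 h is not independent of its selection. Cyp2c29, another epoxygenase, had 21.1, 5.7 and 21.4 in controls, 3.78, 0 and 0 in 18h-αGal and 27.8, 51.4 and 7.36 in 72h-αGal, and its difference at 18 h did not pass (adjusted p = 0.154).

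Cyp2b10 (chr7:25597045-25626049), a drug-metabolising enzyme and the standard target gene of the constitutive androstane receptor, had 1208, 565 and 1726 normalised counts in controls. In 18h-αGal it had 146, 54.8 and 75.9, and in 72h-αGal 568, 1004 and 224. It fell 12.2-fold at 18 h (log2 fold change -3.61 ± 0.73, adjusted p = 0.0367), with no overlap between control and 18h-αGal. Cyp2e1 (chr7:140343652-140355167), which oxidises ethanol, had 211, 139 and 47.5 in controls, 34, 19.8 and 19.3 in 18h-αGal and 40.5, 115 and 157 in 72h-αGal. It fell 5.41-fold at 18 h (log2 fold change -2.43 ± 0.58, adjusted p = 0.0228). Cyp2d26 (chr15:82674300-82678509), among the 5 most abundant members, had 2229, 1562 and 3362 in controls against 1017, 865 and 1708 in 18h-αGal. The groups overlapped and the difference of -0.99 ± 0.37 on the log2 scale did not pass (adjusted p = 0.172).

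The Cyp3a genes, which oxidise a wide range of drugs, split by gene. Cyp3a11 (chr5:145791236-145816867), the best known target of the pregnane X receptor, had 1766, 658 and 2877 normalised counts in controls, 238, 134 and 127 in 18h-αGal and 956, 2632 and 390.0 in 72h-αGal. Cyp3a25 (chr5:145913516-145946432) had 2069, 1045 and 4584 in controls, 415, 206 and 249.7 in 18h-αGal and 1413, 3625 and 489 in 72h-αGal. Both were below all controls in each 18h-αGal library, by log2 fold changes of -3.37 ± 0.89 and -3.11 ± 0.91, yet their controls differed among themselves by more than 4-fold and neither passed (adjusted p = 0.0884 and 0.114). DESeq2 gave adjusted p = 0.000604 for Cyp3a11 and 0.00338 for Cyp3a25. Cyp3a13 (chr5:137891193-137919882), which lies apart from these genes on the same chromosome, had 4447, 3361 and 8093 in controls and 5095, 4041 and 6259 in 18h-αGal. Its log2 fold change was -0.03 ± 0.43, and the groups overlapped fully. In 72h-αGal it had 3313, 4919 and 1911.

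**Figure D3:**
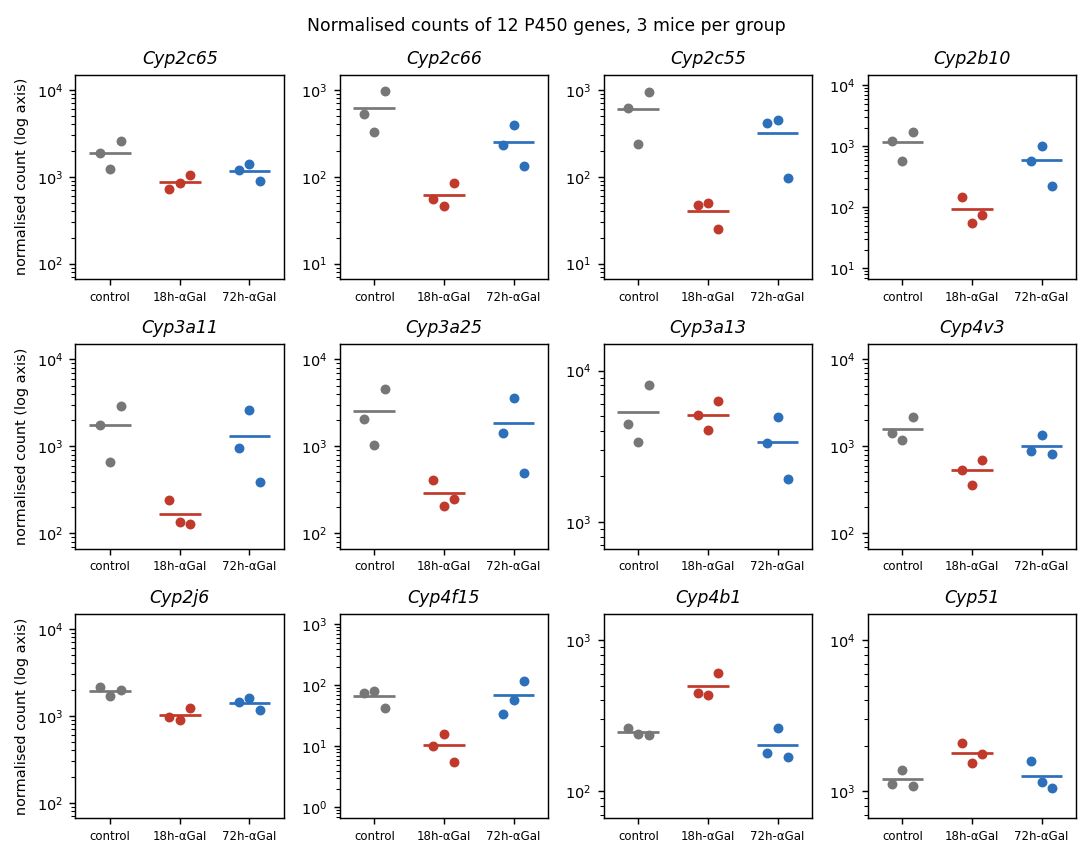
Normalised counts (log axis, a scale for each panel) of 12 P450 genes, with each point a mouse and each line the mean of 3 mice, for control, 18h-αGal and 72h-αGal. The 18h-αGal points lie below all control points for Cyp2c65, Cyp2c66, Cyp2c55, Cyp2b10, Cyp3a11, Cyp3a25, Cyp4v3, Cyp2j6 and Cyp4f15, above them for Cyp4b1 and Cyp51, and among them for Cyp3a13.

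The 6 remaining members of families 2 and 3, Cyp2c23, Cyp2c70, Cyp2d22, Cyp2t4, Cyp2w1 and Cyp3a59, did not pass at 18 h, with log2 fold changes from -2.56 (Cyp2w1) to -0.05 (Cyp2c23). For Cyp2t4, 98.2% of the exon sequence overlaps Egln2 on the opposite strand, so its value is uncertain. Targets of the aryl hydrocarbon receptor, the sensor of dietary indoles and polycyclic compounds, were represented by 2 members and neither passed. Cyp1a1 (chr9:57595211-57611107), the classical target, had 163, 106 and 152 normalised counts in controls, 64.3, 1.8 and 55.2 in 18h-αGal and 48.7, 122 and 20.6 in 72h-αGal. All 18h-αGal values were below the controls, but the log2 fold change of -1.78 carried an SE of 0.91 (adjusted p = 0.308). Cyp2s1 (chr7:25501895-25516338), an abundant extrahepatic P450, had 3741, 3219.7 and 4111 in controls and 2567, 2173 and 3433 in 18h-αGal, with overlap and a log2 fold change of -0.43 ± 0.15 (adjusted p = 0.107).

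Fatty acid and eicosanoid oxidising members were divided. Of 16 tested, 5 fell at 18 h and 1 rose, and the median log2 fold change was -0.88. Among all genes tested, 2.69% fell and 3.27% rose, with a median of -0.03. Cyp2j6 (chr4:96404375-96441935), an arachidonic acid epoxygenase, had 2137, 1696 and 1957 normalised counts in controls, 969, 890.2 and 1246 in 18h-αGal and 1461, 1609 and 1171 in 72h-αGal. It fell 1.86-fold (log2 fold change -0.89 ± 0.16, adjusted p = 0.00422) with the smallest SE of the 12 genes that fell. Its neighbour Cyp2j9 (chr4:96445637-96479941) had 206, 231 and 105 in controls, 26.5, 63.8 and 60.7 in 18h-αGal and 197, 159 and 102 in 72h-αGal, a fall of 1.87 ± 0.42 on the log2 scale at 18 h (adjusted p = 0.0162).

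Cyp4v3 (chr8:45757972-45786330), an ω-hydroxylase of fatty acids, had 1423, 1186 and 2197 normalised counts in controls, 529, 363 and 698 in 18h-αGal and 877, 1354 and 819 in 72h-αGal. It fell 3-fold at 18 h (log2 fold change -1.59 ± 0.29, adjusted p = 0.0114). Cyp2u1 (chr3:131082090-131096876), which hydroxylates long-chain fatty acids, had 505, 412 and 516 in controls, 199, 225 and 366 in 18h-αGal and 680.0, 628 and 503 in 72h-αGal, and fell by 0.86 ± 0.23 on the log2 scale (adjusted p = 0.0376). Both genes had every 18h-αGal library below every control.

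The Cyp4f cluster on chromosome 17 holds ω-hydroxylases of leukotrienes and fatty acids, and 1 of its 7 members fell. Over all genes tested the share that fell was 2.69%. Cyp4f15 (chr17:32904421-32922640) had 74, 80.7 and 42.8 normalised counts in controls, 10.1, 16.2 and 5.52 in 18h-αGal and 33.6, 56.5 and 119 in 72h-αGal, a 6.08-fold fall at 18 h (log2 fold change -2.60 ± 0.61, adjusted p = 0.0203). The more abundant Cyp4f14 (chr17:33120541-33136561) had 7141, 5121 and 12555 in controls and 7965, 7128 and 10695 in 18h-αGal, and its log2 fold change of 0.07 ± 0.38 did not pass. Cyp4f40 (chr17:32877874-32896031) had 2645, 2281 and 4201 in controls and 2192, 2854 and 4005 in 18h-αGal (log2 fold change -0.002, adjusted p = 0.998). Both overlapped with controls.

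Cyp4b1 (chr4:115476281-115504999), which oxidises fatty acids and activates some plant toxins, was the member that rose. It had 261, 239 and 238 normalised counts in controls, 448, 431 and 607 in 18h-αGal and 181, 261 and 169 in 72h-αGal. Each 18h-αGal library was above all others, and the rise was 2.02-fold (log2 fold change 1.01 ± 0.23, adjusted p = 0.0173). Its exons overlap those of Cyp4a32 on the opposite strand over 657 bases, 8.7% of the exon length of Cyp4b1. Cyp4a10 (chr4:115375461-115390849), a target of the peroxisome proliferator-activated receptor α, had 43.5, 47.5 and 61.8 in controls, 7.57, 0 and 49.7 in 18h-αGal and 9.27, 47.4 and 33.9 in 72h-αGal, and did not pass (adjusted p = 0.485). The other 7 members of this group, Cyp2j5, Cyp2j13, Cyp4a32, Cyp4f13, Cyp4f16, Cyp4f17 and Cyp4f39, did not pass either, with log2 fold changes from -1.49 to 0.49.

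No member of the sterol and bile acid group passed at 18 h, but all 3 lay close to the threshold, which was also passed by all 3 with DESeq2. Cyp51 (chr5:4123416-4154751), the lanosterol demethylase of cholesterol synthesis, had 1128, 1391 and 1091 normalised counts in controls and 2105, 1535 and 1767 in 18h-αGal, without overlap, and a log2 fold change of 0.59 ± 0.17 (adjusted p = 0.0552, DESeq2 0.0387). Cyp39a1 (chr17:43978281-44062322), an oxysterol hydroxylase, had 251, 290.5 and 143 in controls, 99, 147 and 69 in 18h-αGal and 319.7, 232 and 308 in 72h-αGal (log2 fold change at 18 h -1.12 ± 0.33, adjusted p = 0.0568, DESeq2 0.0208). Cyp27a1 (chr1:74752314-74777056), the mitochondrial sterol hydroxylase, had 221, 216 and 445 in controls, 105, 97 and 208 in 18h-αGal and 221, 304 and 269 in 72h-αGal. Its groups did not overlap at 18 h (log2 fold change -1.09 ± 0.34, adjusted p = 0.0739, DESeq2 0.0334), and 32.8% of its exon sequence overlaps Prkag3 on the opposite strand, as 21.1% of that of Cyp51 overlaps Akap9.

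Vitamin D and retinoic acid genes were near the limit of detection, and none of 4 passed. Cyp27b1 (chr10:126884119-126888875), which activates vitamin D, had 25.3, 43.7 and 19 normalised counts in controls, 12.6, 0 and 2.76 in 18h-αGal and 41.7, 34.3 and 58.1 in 72h-αGal. The 18h-αGal values were the lowest (log2 fold change -2.40 ± 0.93, adjusted p = 0.146). Cyp24a1 (chr2:170324628-170339065), which inactivates vitamin D, had 32.3, 26.6 and 42.8 in controls, 36.6, 14.4 and 33.1 in 18h-αGal and 4.63, 17.1 and 0 in 72h-αGal. Cyp26b1 (chr6:84548396-84570890) had 17, 21.8 and 0 in controls, 27.1, 18 and 24.8 in 18h-αGal and 0, 8.07 and 1.47 in 72h-αGal. Cyp2r1 of the same group, the steroidogenic Cyp17a1 and the orphan Cyp20a1 did not pass, with log2 fold changes at 18 h of -0.42, -1.03 and 0.69.

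**Figure D4:**
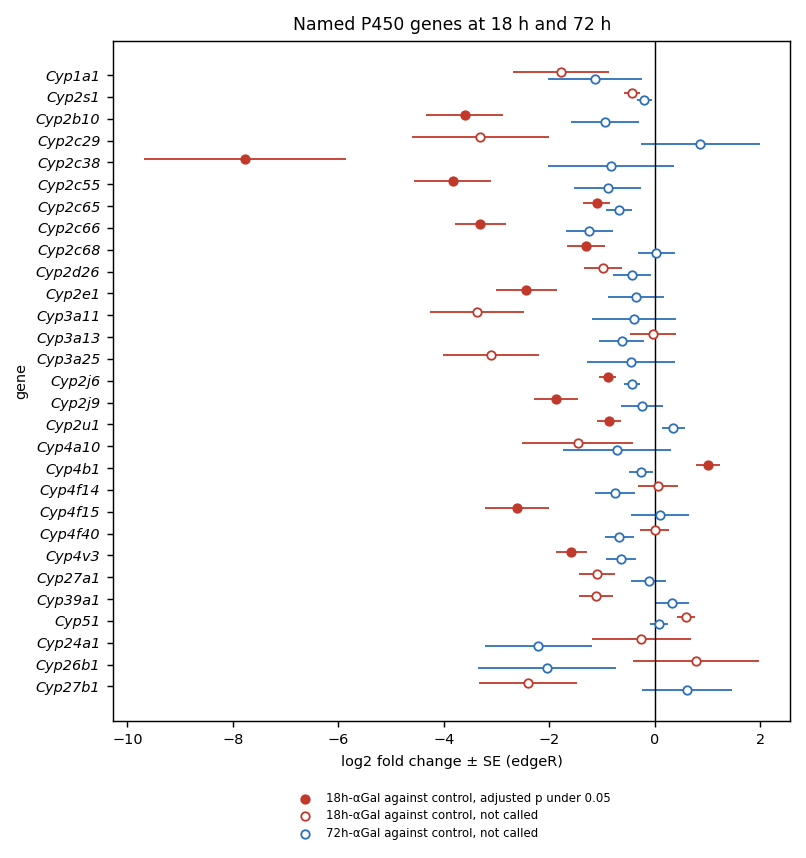
Log2 fold changes (points) with SE (bars) from edgeR for 29 named P450 genes, 18h-αGal against control in red and 72h-αGal against control in blue, filled where the adjusted p was under 0.05. The filled points are all at 18 h, 12 on the negative side and Cyp4b1 on the positive side; the red point of Cyp2c38 rests on 0 counts in all 18h-αGal libraries, so its size is no bound.

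Of the 13 calls at 18 h, 10 were lost or not tested when some library was left out. Cyp2c66, Cyp2j6 and Cyp4v3 kept the call whichever of the 9 libraries was left out. Without control replicate 1, 9 of the other calls were lost (adjusted p from 0.0589 to 0.127) and Cyp2c38 was not tested. Leaving out control replicate 2 ended 6 calls (Cyp2c68, Cyp2e1, Cyp2j9, Cyp2u1, Cyp4b1, Cyp4f15; 0.0503 to 0.0614) and control replicate 3 ended 3 (Cyp2b10, Cyp2c68, Cyp2u1; 0.0561 to 0.103). Leaving out 18h-αGal replicate 1 ended 8 (all but Cyp2c66, Cyp2e1, Cyp2j6, Cyp4b1 and Cyp4v3; 0.0556 to 0.132), replicate 2 ended 7 (0.0989 to 0.18; Cyp2b10, Cyp2c38, Cyp2c55, Cyp2c65, Cyp2c68, Cyp2e1, Cyp2u1) and replicate 3 ended 6 (0.0507 to 0.116; Cyp2b10, Cyp2c55, Cyp2c68, Cyp2e1, Cyp4b1, Cyp4f15). The libraries at 72 h, which enter the shared estimate of the spread, mattered for Cyp2b10 and Cyp2c68 (72h-αGal replicate 1) and for Cyp2u1 (replicates 1 and 2), with adjusted p from 0.0586 to 0.0825. The sign of the change stayed for all 13 genes when a library was left out. DESeq2 called 17 members lower and 2 higher, among them all 13 called by edgeR. It also called more genes at 18 h over the whole table, 1720 against 1128 with edgeR, counting both directions.

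At 72 h no member passed the test against control. With edgeR, 0 of 45 passed, where 5 of all genes (0.0264%, all of them lower) did, and with DESeq2 0 members passed as well. At an unadjusted p under 0.05 (edgeR) there were 7 of 45 members, all lower than control (Cyp24a1, Cyp2c65, Cyp2c66, Cyp2j6, Cyp2w1, Cyp4f40 and Cyp4v3). Among all genes tested, 5.94% were under 0.05, counting both directions. The median log2 fold change of the family was -0.43 against 0.002 for all genes, and -0.20 without control replicate 3. The groups did not overlap, with 72h-αGal lower, for 5 members (11.1%, background 6.3%), and with 72h-αGal higher for 0 (background 6.36%). Among the 12 genes that fell at 18 h, 11 had a log2 fold change at 72 h of less than 50% of that at 18 h, a share of 91.7%. Of all 509 genes that fell at 18 h the share was 91.2%, so it does not set the P450 genes apart. The exception was Cyp2c65 with 61.1%, whereas Cyp2c66 had 37.5%, Cyp2c55 23.3% and Cyp2b10 26.2%. These percentages compare 2 contrasts that share the control libraries, and the 12 genes were selected on the first.

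Between both αGalCer groups, 9 members were higher at 72 h than at 18 h and 1 was lower. This is 20% higher against a background of 4.18%, and 2.22% lower against 6.04%. Without overlap between these groups, 19 members were higher at 72 h (42.2%, background 16.6%) and 3 were lower (6.67%, background 16.3%). Of the 12 genes that fell at 18 h, 8 were higher at 72 h than at 18 h: Cyp2c38, Cyp2c55, Cyp2c66, Cyp2c68, Cyp2e1, Cyp2j9, Cyp2u1 and Cyp4f15. This is 66.7%, against 74.3% of all 509 genes that fell at 18 h. Both comparisons use the same 18h-αGal libraries, on whose low values the 12 genes were chosen, so the count is a description. Cyp4f15 differed by 2.70 ± 0.61 on the log2 scale (adjusted p = 0.0115), Cyp2c66 by 2.07 ± 0.48 (adjusted p = 0.02) and Cyp2u1 by 1.21 ± 0.23 (adjusted p = 0.00432). Cyp39a1, not called at 18 h, was 2.72-fold higher at 72 h than at 18 h (adjusted p = 0.0118). Cyp4b1 was 2.42-fold lower at 72 h than at 18 h (adjusted p = 0.0033). For Cyp2b10 and Cyp4v3 the difference missed the threshold (adjusted p = 0.0636 and 0.0633). The remaining 2 genes that fell, Cyp2c65 and Cyp2j6, had 0.43 ± 0.25 and 0.46 ± 0.16 (adjusted p = 0.323 and 0.0777).

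Calls between 72 h and 18 h also rested on single libraries. Cyp2u1 and Cyp4b1 kept the call whichever library was left out, and the other 8 lost it at least once. Without 18h-αGal replicate 1, 18h-αGal replicate 2 or 72h-αGal replicate 2, 5 of the 10 calls were lost each time, with adjusted p up to 0.14. Leaving out 18h-αGal replicate 3 ended 3, 72h-αGal replicate 1 and replicate 3 ended 4 each, control replicate 1 ended 2, and control replicates 2 and 3 ended 0.

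Genes that serve the enzymes were measured beside them. Of 10 electron transfer genes, 0 passed at 18 h (edgeR), with a median log2 fold change of -0.01. Por, the oxidoreductase that supplies microsomal P450 enzymes, had -0.01 (adjusted p = 0.982). Of 12 genes of heme synthesis and breakdown, 0 passed at 18 h. Among all genes tested, 3.27% rose and 2.69% fell at 18 h. Of 20 receptors and other regulators of P450 genes, 0 rose at 18 h. Those that fell included Nr1h4, the bile acid receptor (log2 fold change -0.98, adjusted p = 0.04), Nr3c1, the glucocorticoid receptor (-0.48, adjusted p = 0.0222), and Ppard (-0.43, adjusted p = 0.0497). The pregnane X receptor Nr1i2 had -0.17, the constitutive androstane receptor Nr1i3 -0.24, the aryl hydrocarbon receptor Ahr -0.17 and Hnf4a 0.06, none of which passed. At 72 h against 18 h, Vdr was higher and Hnf4g was lower.

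Markers of cell types were measured in the same libraries. Of 12 enterocyte markers, 0 passed at 18 h, with a median log2 fold change of -0.04 and 7 of 12 negative, and their sums ranged from 162198 to 416645 normalised counts in controls and from 221171 to 348909 in 18h-αGal. Single markers ran from -2.16 (Lct) to 0.38 (Slc5a1). Lct had 4738 to 24704 normalised counts in controls and 1577 to 4544 in 18h-αGal, without overlap (edgeR adjusted p = 0.232). At 72 h all 12 enterocyte markers were negative against control, with a median of -0.77 and 0 called. Of 6 stem cell markers, all were negative at 18 h, with a median of -1.07 and 0 called. Their sums ranged from 42876 to 82122 in controls, from 12560 to 40771 in 18h-αGal and from 54906 to 85748 in 72h-αGal. The sums of control and 18h-αGal did not overlap, by a narrow margin. Taken singly, Olfm4 and Slc12a2 did not overlap, whereas Lgr5, Ascl2, Smoc2 and Rgmb did. Of 8 secretory cell markers, 2 rose at 18 h, both of enteroendocrine cells: Chga by 0.61 on the log2 scale and Chgb by 0.72. At 72 h both were lower than control, with log2 fold changes of -1.13 for Chga (adjusted p = 0.039) and -1.06 for Chgb (adjusted p = 0.0349). Endothelial marker sums were 78.5 to 88.3 in controls and 19.8 to 40 in 18h-αGal, and fibroblast marker sums 34.2 to 59.4 and 5.67 to 13.8. The part of these shifts in the P450 values was not tested. Myeloid marker sums overlapped between control (340.0 to 561) and 18h-αGal (418 to 668).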

How the data were processed

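RNA-seq (100 bp reads, ribosomal RNA depleted, directional library kit) was measured on sorted IECs, with 1 library per mouse. The authors aligned reads with HISAT2 and deposited raw counts per gene, together with normalised counts, a signal obtained by dividing each raw count by 1 factor per library (0.4206 to 1.703). The submitters' processing notes also name featureCounts, Subread and DESeq2 1.42.0. These notes give GRCm38 as the genome and the paper's methods GRCm39, so the build of the counts is uncertain. The annotation release and the strand setting are not given in the sources used here, so reads of overlapping genes on opposite strands cannot be told apart with certainty.

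Ensembl IDs were matched to GENCODE vM39 (GRCm39) for symbols, coordinates and exon lengths; 808 of 29288 IDs had no match. Raw counts were tested with edgeR 4.0.16 (TMM, filterByExpr, robust quasi-likelihood, R 4.3.3, limma 3.58.1) on all 9 libraries, with Benjamini-Hochberg adjustment over 18933 genes and a threshold of 0.05. Differences are log2 fold changes with SE; levels are normalised counts with SD, compared between genes per kb of exon. A gene with 0 counts in a group was set against a floor of 3 counts per library (1.76 to 7.13 normalised counts), which covers counting error only. Total counts of 8887861 to 32722293 set the precision. The edgeR p-values set each difference against the spread between mice within groups, estimated over all 9 libraries with information shared across genes. Sharing of 50-base words between transcripts was counted, and the scripts were tested on simulated data.

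Alternatives were DESeq2 1.42.0, RLE factors, no filter, only the 6 libraries compared, a replicate block, a log2 fold change of at least 1, and leaving out each library. Same-numbered libraries of different groups correlated at -0.133 to 0.102 in their deviations, so the numbers were not taken as pairs. Values per library are given for members called in any comparison, the 5 most abundant per kb, and members listed by role. The members and lists were chosen with earlier results of these data known. Promoter windows came from RefSeq (GRCm38.p6). Protein sequences were not analysed here. Some results for regulators, heme genes and motifs are not reported here.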

Additional observations from a re-analysis of the deposited data

Results flagged for a closer look

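For 10 P450 genes, 72h-αGal differed from 18h-αGal in edgeR's test between both αGalCer groups. With the shared control group, this equals the difference of both contrasts against control. No control was sampled at 72 h, so a change in the effect of αGalCer and the time of sampling cannot be told apart. On the log2 scale the difference was 2.94 for Cyp2c55, 2.70 for Cyp4f15, 2.08 for Cyp2e1, 2.07 for Cyp2c66, 1.62 for Cyp2j9, 1.44 for Cyp39a1, 1.33 for Cyp2c68, 1.21 for Cyp2u1 and -1.27 for Cyp4b1. Cyp2c38 had a fitted 6.94, which depends on the prior count because all 18h-αGal libraries were at 0; against the floor it was at least 4.81-fold higher at 72 h, or 1.66-fold without 72h-αGal replicate 2, which held most of its counts. Only Cyp2u1 and Cyp4b1 kept this call whichever library was left out.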

How the results depend on the processing

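The number of P450 genes called at 18 h (13) was 19 with DESeq2, 12 with RLE factors, 15 without the filter, 11 with only the 6 libraries compared and 11 with a log2 fold change of at least 1; leaving out a library gave 3 to 13 (3 without control replicate 1). At 72 h against control it was 0 under every alternative run. Between 72 h and 18 h (10 calls) it was 17 with DESeq2, 10 with RLE factors, 13 without the filter, 11 with 6 libraries and 5 to 14 with a library left out, where the median log2 difference ranged from 0.52 (without 18h-αGal replicate 2) to 0.91. Over all genes, DESeq2 called 1720 at 18 h and 2494 between 72 h and 18 h, against 1128 and 1936 with edgeR. Cyp2c66 and Cyp4v3 kept the 18 h call under all 15 alternatives.

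With a replicate block, 6 members were called at 18 h and 6 between 72 h and 18 h; the replicate numbers are not a pairing by design, and the correlations of same-numbered libraries were between -0.133 and 0.102. The log2 fold change of Cyp4f40 at 18 h turned from -0.002 to 0.0033 with the replicate block and to 0.0071 without the filter.

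With a library left out, these uncalled log2 fold changes spanned 0. At 18 h, Cyp4f14 ranged from -0.18 to 0.49, Cyp3a13 from -0.27 to 0.39, Cyp4f40 from -0.25 to 0.29 and Cyp24a1 from -0.51 to 0.063. At 72 h against control, Cyp2c68 ranged from -0.32 to 0.29, Cyp2e1 from -0.78 to 0.16, Cyp27a1 from -0.28 to 0.29, Cyp3a11 from -1.37 to 0.13, Cyp3a25 from -1.41 to 0.25, Cyp4f15 from -0.55 to 0.43 and Cyp51 from -0.10 to 0.21. Between 72 h and 18 h, Cyp1a1 ranged from -0.23 to 1.24. The cause was not tested, beyond the smaller number of libraries. Of 1316 values of single members under alternatives, 1152 kept direction and side of the threshold, 93 lost a call and 44 gained it. The ratio of the summed P450 level in 18h-αGal to control, recomputed with each library left out (an alternative chosen after seeing the data), ranged from 0.636 to 0.844, the latter without control replicate 3. Members with few counts, such as Cyp2c38 and Cyp26b1, are limited by depth.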
